A study of Mus musculus with 51 samples.

Results

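The genes described are 10 that encode acute phase proteins of mouse liver: the serum amyloid A genes Saa1, Saa2, Saa3 and Saa4, lipocalin 2 (Lcn2), the orosomucoid genes Orm1, Orm2 and Orm3, haptoglobin (Hp) and hemopexin (Hpx). They were chosen by name, and all 10 were found among the 33773 gene symbols of the expression matrix. The study set out to remove the FoxA factors, forkhead proteins that open chromatin at liver genes, and HNF4a, a nuclear receptor of hepatocytes, and measured RNA by sequencing. Hepatocytes gave 15 libraries: 3 labelled FoxA1/A2 lox, 4 of FoxA3 null and 4 of FoxA triple null mice, and 4 labelled FoxA1/A2 Cre alfp. The 6 liver libraries were 2 of HNF4a control and 4 labelled HNF4a null. Levels are RPKM, read number per gene length and sequencing depth.

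Per the series' design text, FoxA triple null mice carried floxed FoxA1 and FoxA2 alleles (L/L) on a FoxA3-/- background and at 8 weeks of age received AAV8, a viral vector, carrying Cre recombinase under the thyroid-binding globulin (Tbg) promoter, which is active in hepatocytes. Their controls, the FoxA3 null group, carried the same alleles and received AAV with GFP, so the deletion of FoxA3 is common to both. FoxA3 was intact in the other hepatocyte groups, lox without and Cre alfp with deletion of FoxA1 and FoxA2. The name Cre alfp refers as background to the albumin promoter with alpha-fetoprotein enhancers, which acts from fetal liver on, so the way and the age of deletion differ between the 2 deleted groups. The age of the FoxA3 null, lox, Cre alfp and HNF4a animals is not given in the sources used here, and for the HNF4a animals neither is the Cre line. Nothing says whether libraries of a group came from separate animals, so each p-value measures the spread between libraries, which may be technical.

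Acute phase proteins are made and secreted mainly by hepatocytes, and their output changes when inflammatory cytokines reach the liver. Interleukin 6, acting through STAT3, and interleukin 1, acting through NF-kB and C/EBP factors, drive most of them. Serum amyloid A1 and A2 ride on high-density lipoprotein and are among the most inducible, SAA4 is the constitutive form, and SAA3 is made in many tissues, macrophages included. Lipocalin 2 binds bacterial siderophores, orosomucoids bind drugs and dampen inflammation, haptoglobin captures free hemoglobin and hemopexin captures free heme.

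The promoters of the gene pairs that stood closest are printed first. Saa1 and Saa2 moved alike in the data below. Orm2 and Orm3 both rose in triple null against FoxA3 null, but in Cre alfp against lox Orm3 alone did, and these genes were not tested against each other. The promoters of Lcn2 and Hpx follow, because Lcn2 had the largest rise in triple null against FoxA3 null and Hpx fell in every deleted group. The sequences come from RefSeq promoter windows on GRCm38.p6, which hold 8 of the 10 genes (Orm1 and Hp have no entry), and the 250 bases before the transcription start are shown, 5′ to 3′ on the gene's strand. Capitals mark matches to TTNNGNAA, a C/EBP-type motif, on either strand.

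Saa1 promoter, chr7:46742981-46743230, minus strand: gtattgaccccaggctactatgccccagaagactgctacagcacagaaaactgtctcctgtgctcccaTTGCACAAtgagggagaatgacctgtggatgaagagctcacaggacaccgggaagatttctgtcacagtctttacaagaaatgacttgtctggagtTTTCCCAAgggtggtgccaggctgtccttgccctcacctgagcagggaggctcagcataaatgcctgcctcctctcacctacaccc

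Saa2 promoter, chr7:46751583-46751832, plus strand: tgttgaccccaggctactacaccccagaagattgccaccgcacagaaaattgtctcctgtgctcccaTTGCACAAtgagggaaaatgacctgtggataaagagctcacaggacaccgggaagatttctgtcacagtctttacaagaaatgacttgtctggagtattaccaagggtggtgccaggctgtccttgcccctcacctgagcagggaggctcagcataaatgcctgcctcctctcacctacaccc

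Orm2 promoter, chr4:63362199-63362448, plus strand: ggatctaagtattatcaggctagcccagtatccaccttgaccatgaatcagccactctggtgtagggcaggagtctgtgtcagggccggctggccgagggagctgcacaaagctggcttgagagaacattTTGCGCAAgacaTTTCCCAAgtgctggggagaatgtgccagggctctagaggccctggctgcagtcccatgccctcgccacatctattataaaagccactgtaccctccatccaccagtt

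Orm3 promoter, chr4:63355908-63356157, plus strand: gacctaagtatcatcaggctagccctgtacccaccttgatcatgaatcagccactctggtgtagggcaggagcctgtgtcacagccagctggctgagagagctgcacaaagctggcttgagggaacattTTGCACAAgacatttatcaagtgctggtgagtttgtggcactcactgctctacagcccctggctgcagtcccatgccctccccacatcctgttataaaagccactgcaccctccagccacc

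Lcn2 promoter, chr2:32387740-32387989, minus strand: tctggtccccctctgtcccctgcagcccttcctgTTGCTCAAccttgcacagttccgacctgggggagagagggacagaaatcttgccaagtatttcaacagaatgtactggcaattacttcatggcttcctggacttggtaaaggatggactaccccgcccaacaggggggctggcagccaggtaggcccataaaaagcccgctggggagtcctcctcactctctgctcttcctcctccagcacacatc

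Hpx promoter, chr7:105600117-105600366, minus strand: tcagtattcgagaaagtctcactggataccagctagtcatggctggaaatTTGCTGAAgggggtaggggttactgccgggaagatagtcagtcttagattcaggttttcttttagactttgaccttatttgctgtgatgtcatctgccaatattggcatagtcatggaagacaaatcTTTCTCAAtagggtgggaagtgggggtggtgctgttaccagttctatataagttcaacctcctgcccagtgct

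The Saa1 and Saa2 promoters were identical at 238 of 251 aligned columns (94.8%), gaps included, and those of Orm2 and Orm3 at 219 of 255 (85.9%). The 26 other pairs of the 8 promoters had 45.7% to 54.9% identity, all in global alignment. TTNNGNAA had at least 1 match within the 300-base window (250 bases before and 50 after the start) of each of the 8 members, beside 40.7% of all 32851 windows in the table. Saa1 had 2 matches and Saa2 had 1, Orm2 had 2 and Orm3 had 1, Saa3 had 4, Saa4 and Hpx had 2 each, and Lcn2 had 1. The HNF4 motif CAAAGNNCA was matched in Saa3 and Hpx and in 6.36% of all windows; the Hpx match lies past the start, outside the printed bases. No match to the STAT motif TTCNNNGAA (8.3% of all windows), the forkhead motif TGTTTNC (20.5%) or the NF-kB consensus (5.8%) lay in the 8 windows, which says only that these letters are not there. The TTNNGNAA and STAT letters can overlap each other where a sequence fits both. Saa1 and Saa2 neighbour each other on chromosome 7, with Saa3 and Saa4 nearby, and Orm3 and Orm2 neighbour each other on chromosome 4 near Orm1. RefSeq lists Saa1 and Saa2 as synonyms of each other, so which copy each row stands for is uncertain, and near-identical copies in either family may have shared reads.

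Whole-series checks bear on how these values can be read. Foxa2 was 0.243 to 0.470 RPKM in triple null against 11.1 to 20.6 in FoxA3 null libraries, and 0.991 to 1.26 in Cre alfp against 6.84 to 19.2 in lox, while Foxa1 was 3.04 to 3.63 against 6.14 to 10.1 and 1.14 to 1.34 against 4.71 to 8.21. Foxa3 was at most 0.0114 in the triple null and FoxA3 null libraries and 19.0 to 34.5 in the lox and Cre alfp libraries. Hnf4a RNA was higher where the label says HNF4a null, at 487 to 545 RPKM, than in the 2 controls, at 118 and 126. A whole-gene level does not show whether part of the gene was deleted, which was not tested. No direction from that comparison can therefore be ascribed to loss of HNF4a. The lox and Cre alfp libraries stood apart from the FoxA3 null and triple null libraries at 1277 of 11500 tested genes (11.1%), where no library of one side overlapped the other, and at 0 of the 10 members, a count near that share. That split coincides with FoxA3 genotype, so a library set and FoxA3 cannot be told apart, and comparisons across it are given as such. AAV injection is described only for the FoxA3 null and triple null mice, so it cannot be told apart from them either. All 10 hepatocyte markers were detected in every group, the lowest being Asgr2 at 5.29 RPKM in a library labelled HNF4a null. The summed Kupffer and macrophage markers were 9.55 to 93.1 RPKM in hepatocyte and 173 to 266 in liver libraries. Total depth is unknown, and relative depth within the matrix spanned 2.01 to 4.07 in hepatocyte and 1 to 1.1 in liver libraries, so low values rest on fewer reads in the latter.

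**Figure D1:**
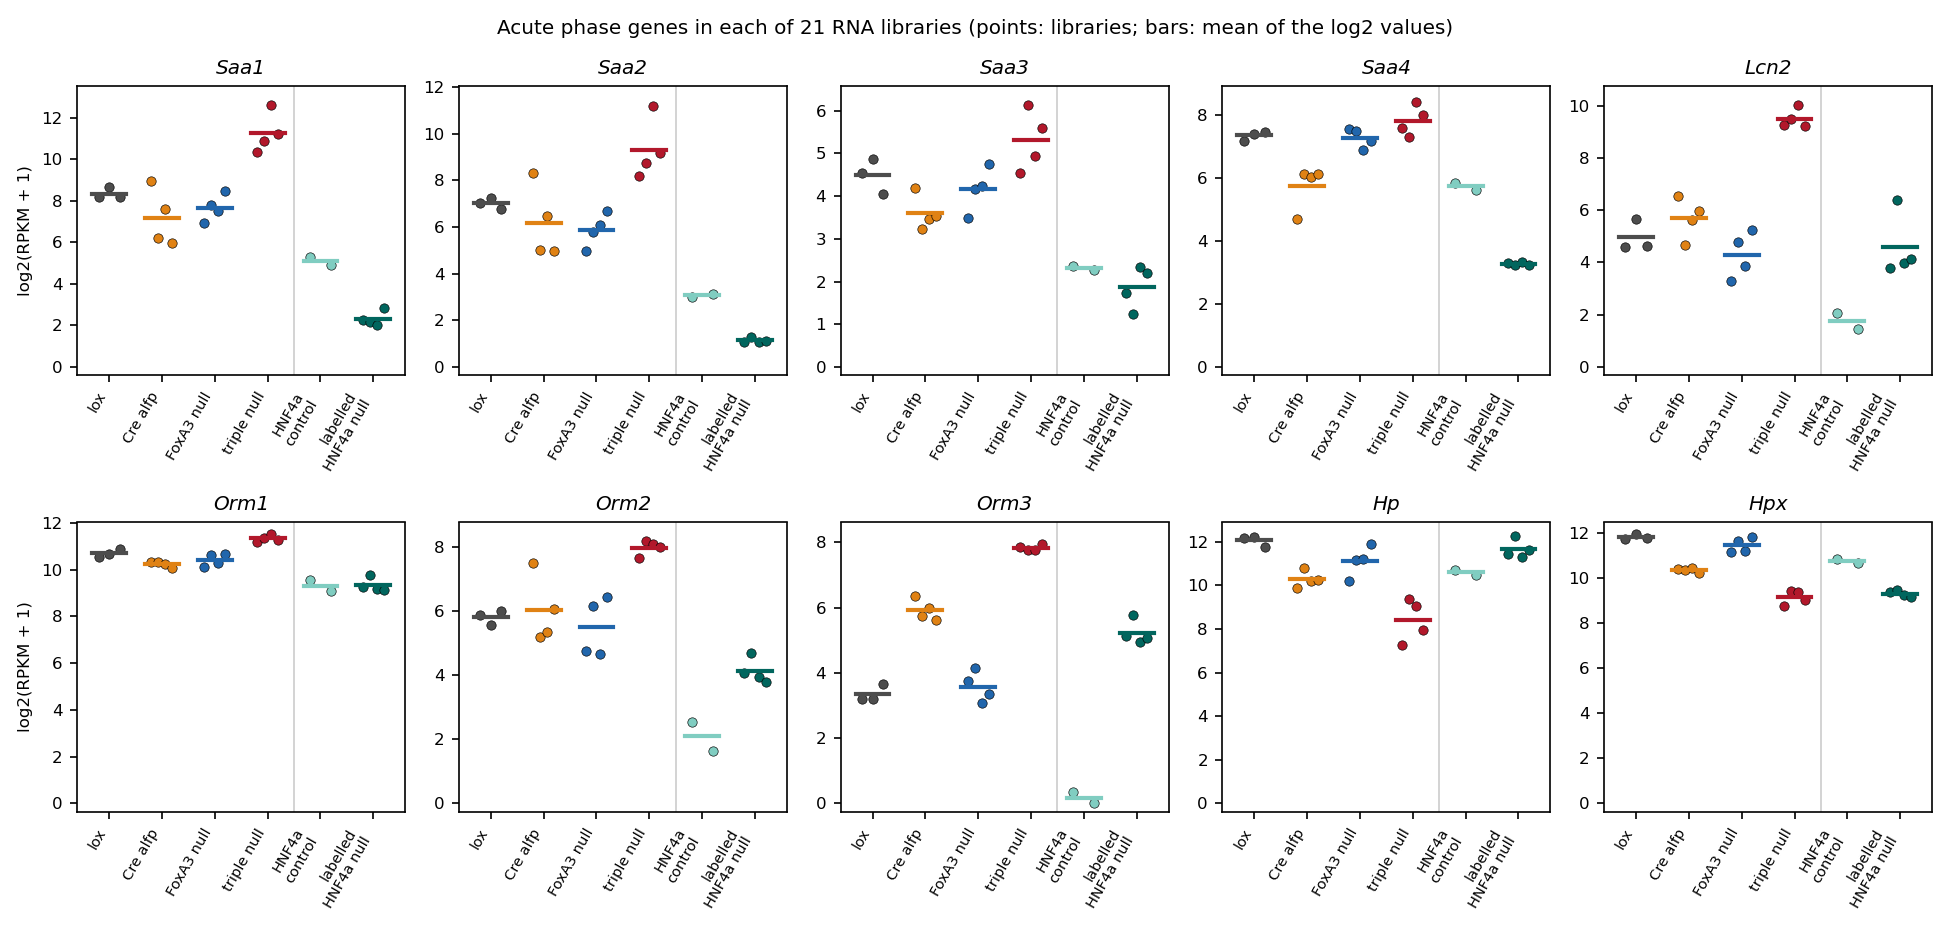
RPKM of the 10 acute phase genes on the log2(RPKM + 1) scale, 1 panel per gene, with a point for each of 21 libraries, a bar for the mean of the log2 values and a grey line between hepatocyte and liver groups. The 4 triple null libraries lie above all other hepatocyte libraries for Saa1, Lcn2, Orm1, Orm2 and Orm3, and below them for Hp and Hpx.

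Deletion of FoxA1 and FoxA2 in adult hepatocytes without FoxA3 (triple null against FoxA3 null) moved the acute phase genes in opposite directions. Saa1, Saa2, Lcn2, Orm2 and Orm3 were about 5.59-fold to 37-fold higher in triple null, Saa3 was 2.21-fold higher, and Hp and Hpx were 6.52-fold and 4.91-fold lower. A difference was called at an adjusted p under 0.05 and at least 1 on the log2 scale, by limma on log2(RPKM + 1) with Benjamini-Hochberg adjustment over all 11500 genes, and folds are on that scale. In all, 8 of the 10 members were called, 6 higher and 2 lower, beside 8.11% of all tested genes, 4.17% higher and 3.95% lower. The groups did not overlap at 8 members, beside 27.9% of all tested genes. In bulk samples, fewer cells of a type and less RNA per cell cannot be told apart.

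Saa1, a major inducible serum amyloid A, was 122, 219, 179 and 355 RPKM in FoxA3 null and 1326, 1870.2, 6248 and 2391 in triple null libraries. Every triple null library exceeded every other hepatocyte library, and library 3 stood far above the rest. The difference was 3.60 ± 0.59 (log2, standard error, n = 4 and 4; limma adjusted p = 0.000435). Saa2, its near-identical neighbour, was 30.0, 54.7, 66.8 and 102 in FoxA3 null and 288, 422, 2325 and 572 in triple null. The groups did not overlap, and the same library, number 3, was again highest. The difference was 3.43 ± 0.71 (limma adjusted p = 0.00248), and 2.81 without that library, still called. Within a library, Saa2 stood at 26.4% ± 7.29 of the Saa1 level in triple null and 29.0% ± 5.95 in FoxA3 null (SD, n = 4 and 4), so the pair rose about equally.

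Saa3 and Saa4 differed less. Saa3, the form also made outside the liver, was 10.2, 17.1, 17.9 and 25.8 RPKM in FoxA3 null and 22.3, 69.7, 29.6 and 47.7 in triple null. The lowest triple null library fell below the highest FoxA3 null library, so the groups overlapped. The difference of 1.15 ± 0.34 (limma adjusted p = 0.0213) was not called without FoxA3 null library 1 (0.92), triple null library 2 (0.87) or triple null library 4 (1.05), nor with no filter on low values (adjusted p = 0.0603). Saa4, the constitutive form, was 185, 178, 118 and 143 in FoxA3 null and 189.6, 156, 338 and 258 in triple null. The groups overlapped, and the difference of 0.55 ± 0.31 was not called (limma adjusted p = 0.196).

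Lcn2, the siderophore-binding lipocalin, showed the largest difference of the 10. It was 8.80, 26.4, 13.5 and 36.9 RPKM in FoxA3 null and 619, 713, 1034 and 601 in triple null. The lowest triple null library was more than an order of magnitude above the highest FoxA3 null library. The difference was 5.21 ± 0.44, 37-fold (limma adjusted p = 8.28e-07). Neutrophils also make Lcn2. Of 13 neutrophil and monocyte markers, S100a8 and S100a9 were the 2 that passed the filter on low values, S100a9 only through the triple null libraries. S100a8 was called higher (3.48 ± 0.62, limma adjusted p = 0.000825). S100a9 was higher by 2.69 ± 0.33, given without its p-value because of the filter. The summed markers were 9.78, 112.8, 24.7 and 25.8 RPKM in the triple null libraries and 0.867 to 2.05 in FoxA3 null. The other 11 markers summed to 0.826 to 4.24 in triple null and 0.202 to 0.677 in FoxA3 null. Ly6g, a defining neutrophil marker, was listed at 0 in all 21 libraries, whole liver included, so it tells nothing about the groups. The library with the highest marker sum, library 2, was not the highest for Lcn2, which was library 3. Kupffer and macrophage markers, beside Saa3, summed to 18.0 to 57.6 in triple null and 27.5 to 37.6 in FoxA3 null, with 0 of 10 tested markers called by limma, and both were highest in the second triple null library. The part of these cells in the Lcn2 and Saa3 values was not tested.

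**Figure D2:**
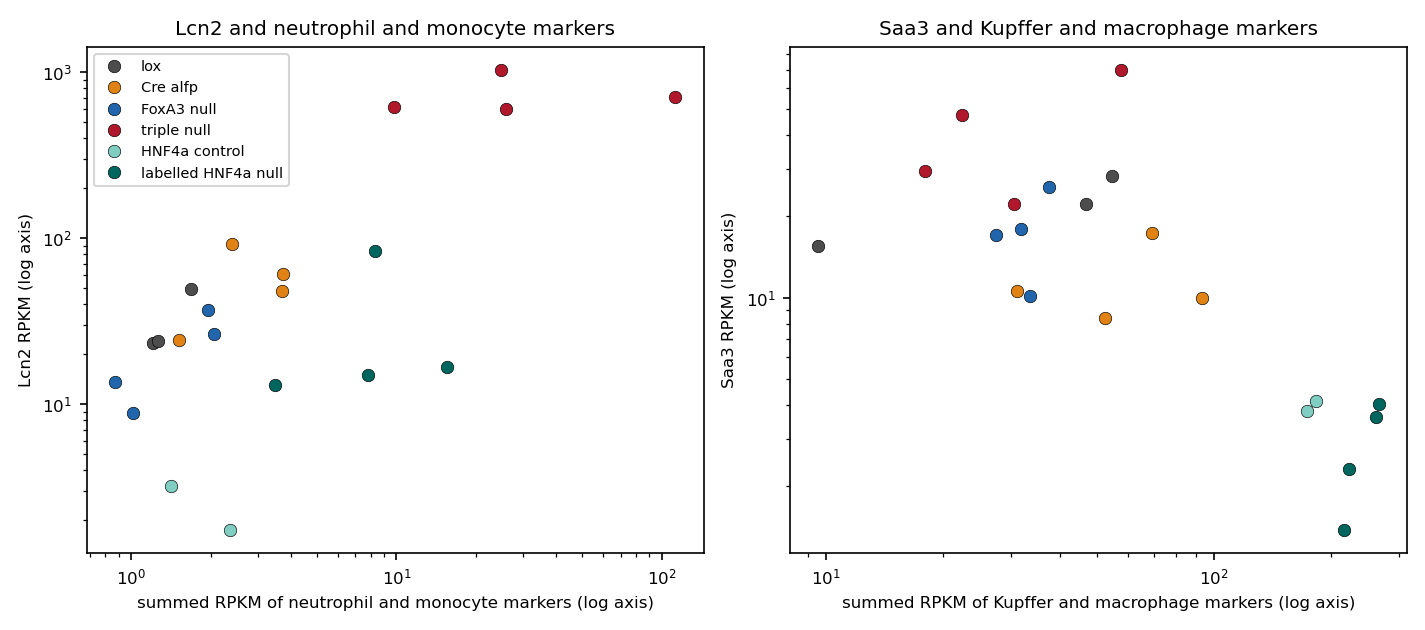
Left, Lcn2 against the summed RPKM of 13 neutrophil and monocyte markers; right, Saa3 against the summed RPKM of the Kupffer and macrophage markers, with log axes and a point for each of 21 libraries, coloured by group. The 4 triple null libraries sit at 601 to 1034 RPKM of Lcn2 over marker sums from 9.78 to 112.8, and liver libraries hold the highest macrophage sums with the lowest Saa3.

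The orosomucoid differences ran in inverse order of the genes' levels in FoxA3 null, and Orm2 and Orm3 were called higher. Orm1, the most abundant, was 1103, 1583, 1245 and 1644 RPKM in FoxA3 null and 2340.1, 2614, 2999 and 2479.9 in triple null. The groups did not overlap, but the difference of 0.92 ± 0.14 (limma adjusted p = 0.000208) lay under the minimum of 1 and was not called; it was 1.09 under quantile normalization and 1.00 without FoxA3 null library 4, where it was called. Orm2 was 25.8, 70.5, 24.1 and 86.8 in FoxA3 null, where libraries fell into a low and a high pair, and 201, 291, 273 and 255 in triple null. The groups did not overlap, and Orm2 rose by 2.48 ± 0.48 (limma adjusted p = 0.0014). Orm3, the least abundant in control libraries, was 12.4, 16.6, 7.40 and 9.26 in FoxA3 null and 230.5, 214, 218 and 247 in triple null. Its triple null libraries lay close together, far above FoxA3 null, and the difference was 4.26 ± 0.21 (limma adjusted p = 3.04e-09). Relative to Orm1 in the same library, Orm3 went from 0.833% ± 0.295 to 8.82% ± 1.32 and Orm2 from 3.50% ± 1.62 to 9.78% ± 1.16 (SD, n = 4 and 4), so that Orm3 came to 91.2% ± 18.5 of Orm2.

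The scavengers of hemoglobin and heme fell. Hp was 1171, 2288, 2377 and 3779 RPKM in FoxA3 null and 152, 658, 539 and 244 in triple null. All triple null libraries lay below all others, though both groups were widely spread. Hp fell by 2.70 (SE 0.43; limma adjusted p = 0.000297). Hpx was 2272, 3178, 2363 and 3705 in FoxA3 null and 439, 699, 674 and 523 in triple null. Its groups were tighter and did not overlap, and it fell by 2.30 (SE 0.17; limma adjusted p = 2.41e-07). Hp was 63.9% ± 27.8 of Hpx in triple null and 81.5% ± 24.3 in FoxA3 null (SD, n = 4 and 4), ranges that overlapped. Beside these falls, the summed sinusoidal endothelium markers were 10.6 to 22.5 RPKM in triple null and 36.7 to 58.2 in FoxA3 null, with 3 of 10 tested called lower, the stellate and fibroblast markers were 6.96 to 24.5 against 25.9 to 35.7, with 2 of 4 tested called lower, and 4 of 10 hepatocyte markers were called lower and 1 higher; their part in the member values was not tested. Of 4 tested erythroid markers, the globins Hba-a1, Hba-a2 and Hbb-b1 were called higher and Alas2 lower. Hba-a2 passed the filter only through the triple null libraries.

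**Figure D3:**
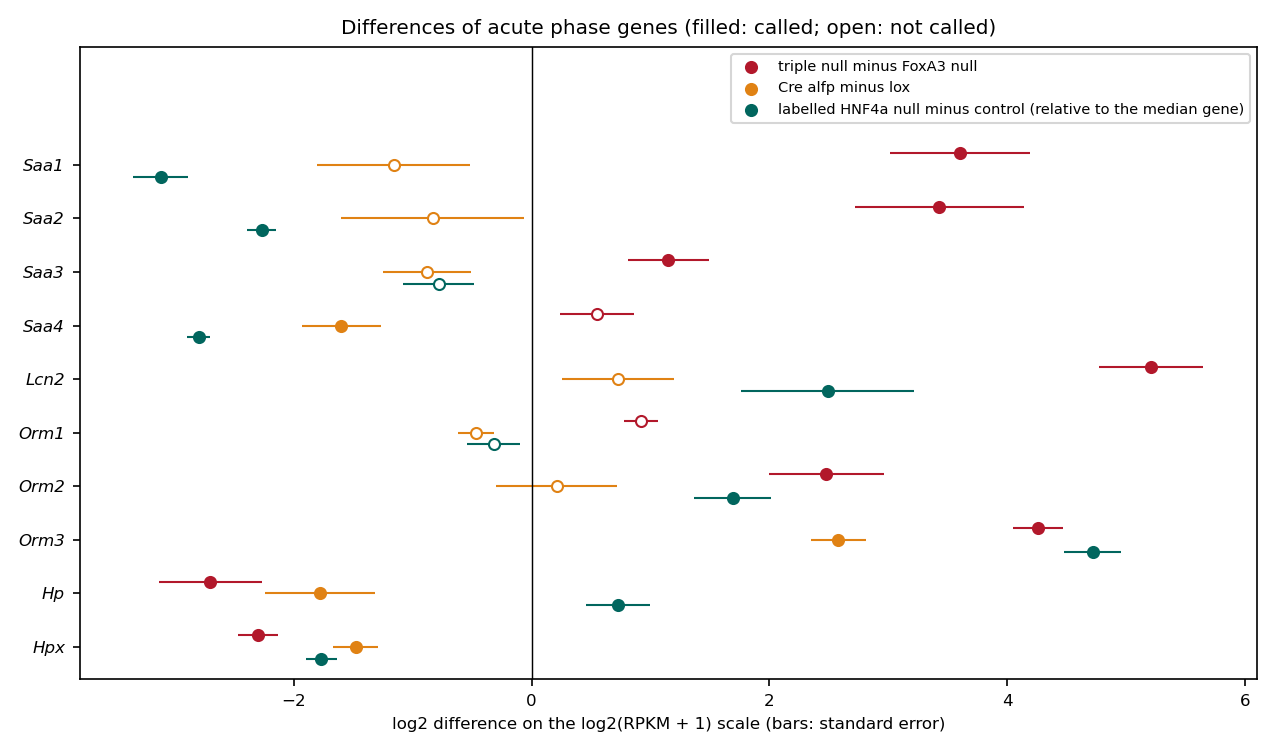
Log2 differences on the log2(RPKM + 1) scale with standard errors for triple null minus FoxA3 null, Cre alfp minus lox and labelled HNF4a null minus control, the last relative to the median of all tested genes; filled points were called and open points were not. Orm3 lies above 0 and Hpx below 0 in all 3, whereas Saa1 and Saa2 lie at 3.60 and 3.43 in the first and below 0 in the others. In liver, Orm3 passed the filter on low values only through the libraries labelled null, so its filled point decides nothing by itself.

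With FoxA3 present, deletion of FoxA1 and FoxA2 (Cre alfp against lox) raised Orm3 and lowered Saa4, Hp and Hpx. These 4 of the 10 members were called, 1 higher and 3 lower, beside 2.38% of all tested genes, 1.29% higher and 1.1% lower. The groups did not overlap at 5 members, beside 19.9% of all tested genes. Orm3 was 8.14, 8.09 and 11.7 RPKM in lox and 80.6, 52.6, 62.2 and 48.5 in Cre alfp. No libraries overlapped, and Orm3 rose by 2.58 ± 0.23 (limma adjusted p = 1.32e-05), from 0.550% ± 0.0622 to 4.999% ± 0.9997 of Orm1 (SD, n = 3 and 4).

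Orm2, whose promoter is closest to that of Orm3, was 58.3, 46.5 and 63.5 RPKM in lox and 181, 35.6, 39.8 and 66.4 in Cre alfp. The first Cre alfp library alone stood above the lox range clearly, and the difference of 0.21 ± 0.51 (limma adjusted p = 0.889) turned to -0.28 without it. Orm1 was 1509.8, 1640.4 and 1905 in lox and 1269.9, 1294, 1214 and 1087 in Cre alfp. Its groups did not overlap, yet the difference of -0.47 ± 0.15 was not called (limma adjusted p = 0.0903).

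Hpx was 3455, 3971 and 3564 RPKM in lox and 1341, 1321, 1385 and 1216 in Cre alfp. The groups were tight and far apart, and Hpx fell by 1.48 (SE 0.19; limma adjusted p = 0.000297). Hp was 4617, 4838 and 3513 in lox and 934, 1809, 1192 and 1207 in Cre alfp. These did not overlap either, and Hp fell by 1.78 (SE 0.46; limma adjusted p = 0.0373). The Hp call was lost without any 1 of 6 of the 7 libraries, all but Cre alfp library 2 (-1.64 to -1.92, adjusted p 0.0612 to 0.13), under quantile normalization and with no filter. Saa4 was 144, 169 and 176 in lox and 24.8, 69.6, 64.6 and 69.1 in Cre alfp. All Cre alfp libraries lay below lox, the first farthest, and Saa4 fell by 1.60 (SE 0.33; limma adjusted p = 0.012), a call lost when only these 2 groups were fitted (adjusted p = 0.0579).

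Saa1 was 291, 406 and 292 RPKM in lox and 491, 73.9, 194 and 61.8 in Cre alfp, and Saa2 was 131, 149 and 109 in lox and 314, 31.4, 86.7 and 30.7 in Cre alfp. For both genes 1 Cre alfp library was above and the other 3 below all lox libraries, and the differences of -1.16 ± 0.64 and -0.83 ± 0.77 were not called (limma adjusted p = 0.374 and 0.641), nor were they without Cre alfp library 1 (-1.75 and -1.53, adjusted p 0.12 and 0.294). Saa3 was 22.3, 28.2 and 15.6 in lox and 17.3, 8.42, 10.0 and 10.6 in Cre alfp (-0.88 ± 0.37, limma adjusted p = 0.211). Lcn2 was 23.2, 49.1 and 24.0 in lox and 92.8, 24.5, 47.9 and 61.1 in Cre alfp (0.73 ± 0.47, limma adjusted p = 0.465). Both overlapped between the groups. Of the markers of other cells, erythroid Hbb-b1 was called higher (3.25 to 4.75 RPKM in Cre alfp and 0.476 to 1.01 in lox) and erythroid Alas2 (8.62 to 24.4 and 79.8 to 89.5) and cholangiocyte Spp1 lower, and their part in the member values was not tested. The first Cre alfp library was the highest of its group for Saa1, Saa2, Saa3, Lcn2, Orm2 and Orm3 and the lowest for Saa4 and Hp.

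The interaction tests whether the deletion differed with FoxA3 status, beside the way and age of deletion, which cannot be told apart from it. The remaining target RNA also differed between the deleted groups. Foxa1 was 3.04 to 3.63 RPKM in triple null and 1.14 to 1.34 in Cre alfp, and Foxa2 was 0.243 to 0.470 and 0.991 to 1.26. The part of this in the interaction was not tested. The interaction was called for 8 of the 10 members, all higher in the direction of triple null, beside 6.82% of all tested genes in either direction with 3.28% higher and 3.54% lower. Markers of other cells were called along with them. S100a8 and S100a9 were higher, the latter having passed the filter only through the triple null libraries. Lower were 3 of 10 sinusoidal endothelium markers, 2 of 4 stellate and fibroblast markers and erythroid Alas2. Of 10 hepatocyte markers 3 were lower and 1 higher. The part of these markers in the member values was not tested. It was largest for Saa1 (4.76 ± 0.87, limma adjusted p = 0.00275), Lcn2 (4.47 ± 0.65, adjusted p = 0.000433) and Saa2 (4.26 ± 1.05, adjusted p = 0.0152; 0.0505 with no filter). The Saa1 value was 5.35 without Cre alfp library 1, and the Saa2 value was 4.96 without that library and 3.64 without triple null library 3. Saa3 (2.03 ± 0.50), Saa4 (2.15 ± 0.45), Orm1 (1.38 ± 0.20) and Orm3 (1.68 ± 0.31) were also called, with limma adjusted p of 0.016, 0.00654, 0.00051 and 0.00295. Saa4 was not called higher in triple null against FoxA3 null (0.55) and was called lower in Cre alfp against lox (-1.60). Orm1 was called in neither (0.92 and -0.47). Orm3 is a gene that rose in both deletions, by more without FoxA3. The Orm2 value of 2.28 ± 0.70 (limma adjusted p = 0.0439) lost its call when any 1 of 12 of the 15 libraries was left out, with no filter (adjusted p = 0.115) and with the replicate block (adjusted p = 0.0611). Hp (-0.93 ± 0.63, limma adjusted p = 0.345) and Hpx (-0.82 ± 0.25, adjusted p = 0.0447) were not called, Hpx for its size; it was -1.14 and called under quantile normalization.

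Comparisons across the split of library sets share groups with those above, so their values stand only side by side, relative to the median of all tested genes, which was shifted by 0.103 to 0.132. FoxA3 null against lox called 0 of 10 members by limma, with 0 at an unadjusted p under 0.05, beside 7.19% of all tested genes called. The values ran from -1.24 ± 0.77 for Saa2, through -1.05 ± 0.46 for Hp, to 0.13 ± 0.23 for Orm3, the last turning to -0.06 without FoxA3 null library 2. Saa2 was the 1 member whose groups did not overlap there, beside 40.1% of all tested genes. Triple null against lox called 7 of 10, beside 13.5% of all genes, 7.72% higher and 5.81% lower: Saa1 (2.79), Saa2 (2.16), Lcn2 (4.41), Orm2 (2.03) and Orm3 (4.35) rose and Hp and Hpx fell by 3.79 and 2.80. The Saa2 call there was lost without any lox library (2.03 to 2.28), without triple null library 3 (1.57) or with no filter (adjusted p = 0.0744). Triple null against Cre alfp called all 10, beside 10.3% of all genes (5.26% higher and 5.03% lower), with 8 higher, from 0.97 for Orm1 (not called under median scaling) to 3.96 for Saa1, and Hp and Hpx lower, 4.01-fold and 2.5-fold on the same scale. The Saa1 and Saa2 values there were 4.55 and 3.71 without Cre alfp library 1, against 3.96 and 3.00, and the Saa2 value was 2.40 without triple null library 3. S100a8 and S100a9 were called higher in triple null against lox and against Cre alfp. Sinusoidal endothelium markers were lower at 6 and 7 of 10, and hepatocyte markers at 4 and 3 of 10. Against lox, Hbb-b1, Hba-a1 and Hba-a2 were also called higher and Alas2 and Sox9 lower. Against Cre alfp, Hba-a2 was called higher and Alas2 and Colec11 lower. S100a9 and Hba-a2 passed the filter only through the triple null libraries, and the part of these markers in the member values was not tested.

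In liver, the libraries labelled HNF4a null differed from their controls at 8 of the 10 members, 4 higher and 4 lower, beside 14.5% of 12434 tested genes, 8.58% higher and 5.95% lower. The 4 higher include Orm3, which passed the filter on low values only through the libraries labelled null, so its call decides nothing by itself. The median of all tested genes was shifted by 0.337, and the values that follow are relative to it, whereas their p-values test the differences before that correction. With 2 controls and 4 libraries labelled null, 67% of all tested genes did not overlap between the groups, so a member without overlap there is no exception. Cholangiocyte markers summed to 132 to 230 RPKM in the libraries labelled null and 16.7 and 17.0 in the controls, with 5 of 6 tested called higher. Among these, Prom1, Sox9 and Epcam passed the filter on low values only through the libraries labelled null. Kupffer and macrophage markers summed to 216 to 266 against 173 and 184, with Marco of 11 tested called higher, and erythroid Alas2 was called lower. Of 10 hepatocyte markers 6 were called lower and 2 higher, which are Cps1 and the targeted gene Hnf4a itself. The part of these markers in the member values was not tested. Saa1 was 38.0 and 29.4 RPKM in the controls and 3.75, 3.54, 3.10 and 6.08 in the libraries labelled null, without overlap, and fell by 3.12 (SE 0.23; limma adjusted p = 0.000199). Saa2 was 7.04 and 7.69 against 1.11, 1.47, 1.08 and 1.15 and fell by 2.27 (SE 0.12; limma adjusted p = 5.2e-05). Saa4 was 56.3 and 48.6 against 8.93, 8.39, 9.03 and 8.37, close to each other, and fell by 2.80 (SE 0.10; limma adjusted p = 7.51e-06). Saa3 was 4.15 and 3.81 against 2.31, 1.37, 4.05 and 3.60, with overlap, and was not called (-0.78 ± 0.30, limma adjusted p = 0.253).

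Orm3 had the largest difference in liver. It was 0.261 RPKM in one control, listed at 0 in the other, and 34.2, 53.4, 29.6 and 32.5 in the libraries labelled null, a rise of 4.72 ± 0.24. Orm3 passed the filter on low values only through the libraries labelled null, so its p-value is not given and its call decides nothing by itself. It thus came to 5.65% ± 0.457 (SD, n = 4) of Orm1, against at most 0.0348% in the controls. Orm2 was 4.88 and 2.13 in the controls and 15.7, 24.8, 14.4 and 12.9 in the libraries labelled null, without overlap, and rose by 1.69 ± 0.32 (limma adjusted p = 0.00268). Orm1 was 749 and 546 against 607, 865, 584 and 567, with overlap, and was not called: its difference was 0.01 ± 0.22 before the correction for the median gene (limma adjusted p = 0.961) and -0.32 after it, or 0.12 under quantile normalization. So the 3 neighbouring genes differed from each other in the same libraries, with Orm3 highest above its controls.

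Lcn2 was 3.22 and 1.73 RPKM in the controls and 13.0, 84.0, 14.9 and 16.7 in the libraries labelled null. All 4 lay above the controls and 1, with barcode GGCTAC, stood far above the others, for a rise of 2.49 ± 0.73 (limma adjusted p = 0.0168). The call was lost without either control (2.17 and 2.78, adjusted p 0.0995 and 0.0552) and with no filter (adjusted p = 0.0689), and held without the GGCTAC library (1.88). S100a8 and S100a9 were higher here too (1.33 ± 0.45 and 1.14 ± 0.48). Both passed the filter only through the libraries labelled null, so their p-values are not given. The 13 neutrophil and monocyte markers summed to 3.50 to 15.6 against 1.42 and 2.36, and their part in the Lcn2 value was not tested. The GGCTAC library, highest for Lcn2, had a marker sum of 8.29, under the 15.6 of the highest.

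Haptoglobin and hemopexin parted in liver. Hp was 1689 and 1432 RPKM in the controls and 2824, 4911, 2542 and 3203 in the libraries labelled null, without overlap, and rose by 0.73 ± 0.27 relative to the median gene (1.07 without that correction, limma adjusted p = 0.016). The Hp call was lost under median scaling (adjusted p = 0.0523), with no filter, without either control and without GGCTAC (0.54). Hpx was 1856 and 1616 against 674, 707, 616 and 570.5, without overlap, and fell by 1.77 (SE 0.13; limma adjusted p = 0.000279). Hp thus stood at 522% ± 134 of Hpx in the libraries labelled null (SD, n = 4) and at 89.8% ± 1.73 in the controls (n = 2), while in hepatocyte libraries it ranged from 34.7% to 137%. Levels of the 2 HNF4a groups and of the hepatocyte groups were not tested against each other.

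Other genes of the acute phase response, from lists chosen by function, did not move as 1 group. Of 21 other positive acute phase genes tested in triple null against FoxA3 null, 6 were called higher and 7 lower. Their median difference was -0.25 beside 0.05 over all tested genes. Beside this list and the negative one below, 4.17% of all tested genes were called higher and 3.95% lower. The higher genes included the metallothioneins Mt2 (2.81 ± 0.67) and Mt1 (2.04 ± 0.50), the lipopolysaccharide co-receptor Cd14 (2.43 ± 0.14) and the interleukin 1 receptor antagonist Il1rn (2.26 ± 0.35), with limma adjusted p of 0.00604, 0.00712, 1.37e-08 and 0.000291. The lower ones included Serpina3n, a protease inhibitor (-5.02 ± 0.28), fibronectin Fn1 (-1.57 ± 0.21), fibrinogen alpha Fga (-1.33 ± 0.19) and Fgl1 (-1.25 ± 0.27), with limma adjusted p of 8.27e-09, 6.74e-05, 0.000113 and 0.00344. Of the 10 negative acute phase genes, whose products fall in inflammation, 5 were lower and 0 higher by limma (1 higher with no minimum difference), with a median of -1.07: Ttr (-5.65 ± 0.15), Apoa1 (-5.23 ± 0.21), Trf (-2.34 ± 0.12) and Pzp (-1.88 ± 0.19) had limma adjusted p of 3.52e-12, 3.72e-10, 4.56e-09 and 6.09e-06.

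In triple null against FoxA3 null, 8.11% of all tested genes were called, 4.17% higher and 3.95% lower. Of 20 tested receptors, kinases and transcription factors that act upstream of the acute phase genes, 4 were called there, 2 higher and 2 lower. Among them the NF-kB cofactor Nfkbiz (1.01 ± 0.31) rose, and the receptor chains Lifr (-1.22 ± 0.15) and Il6ra (-1.02 ± 0.33) fell, with limma adjusted p of 0.0227, 3.44e-05 and 0.0329. The count higher was 1 with no filter, under median scaling, under quantile normalization and without FoxA3 null library 1 or triple null library 2, 3 without FoxA3 null library 4 or triple null library 3, and 6 with no minimum difference. The count lower was 1 with no filter, in a fit of the 2 groups and without FoxA3 null library 1 or 4 or triple null library 3 or 4. Cre alfp against lox called Il1rn higher (2.28 ± 0.38, limma adjusted p = 0.00319) and Serpina3n lower (-1.67 ± 0.30, adjusted p = 0.00445) among the positive genes. It called 0 of the negative and upstream lists, where single genes were called without lox library 3 or Cre alfp library 3 or 4. Over all tested genes, 1.29% were called higher and 1.1% lower in that comparison. In liver, 9 of 21 positive genes were called higher and 3 lower, or 5 lower under median scaling and 6 without the GGCTAC library (median 0.21 beside 0.00 over all tested genes), with Mt1 (3.27 ± 0.35) and Il1rn (2.70 ± 0.16) up and Crp (-2.56 ± 0.33) and Cfb (-2.10 ± 0.19) down, at limma adjusted p of 0.000342, 2.3e-05, 0.00204 and 0.000536. Of the 21 upstream genes tested there, Il1rap (-3.77 ± 0.11, limma adjusted p = 3.42e-06) and Cebpa (-1.77 ± 0.10, adjusted p = 9.57e-05) were the 2 called lower, with 0 higher by limma. Under median scaling 4 were lower, and with no minimum difference 5 were lower and 5 higher. Beside both lists, 8.58% of all 12434 genes tested in liver were called higher and 5.95% lower.

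The genes whose pattern over the 15 hepatocyte libraries was most like each member were found by the root mean square difference of log2(RPKM + 1) after each gene's mean was removed, so a small value means a like pattern. Saa1 and Saa2 were nearest to each other (0.45), nearer than the closest other genes, S100g and Isyna1 (0.92 and 0.94 for Saa1). Hp and Hpx (0.55 from each other) both had Hc, complement component C5, and Gstm2 as the nearest others, at 0.55 and 0.55 for Hp and 0.28 and 0.29 for Hpx. Lcn2 was nearest to Car2 (0.65) and Cidec (0.80), Orm3 to Gm10680 (0.59) and Cyp2c40 (0.66), and Orm2 to Slc16a5 (0.47) and Gm11695 (0.59). Orm1, which varied least (a spread of 0.46), was nearest to 2010001A14Rik (0.13) and Ufsp1 (0.16). Saa3 was nearest to Tmem176a (0.39) and BC029722 (0.41), and Saa4 to Cyp7b1 (0.47) and B430219N15Rik (0.48). These are descriptions over libraries that share groups.

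Within groups, the members often peaked in the same library. FoxA3 null library 4 was the highest of its group for 8 members, Saa4 and Orm3 excepted, and FoxA3 null library 1 was the lowest for 7. Triple null library 3 was the highest for Saa1, Saa2, Saa4, Lcn2 and Orm1, and triple null library 1 the lowest for 7 members, Saa4, Lcn2 and Orm3 excepted. Of the libraries labelled HNF4a null, GGCTAC was highest for 7. A replicate's rank is a description of these libraries, and members share them.

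The deposited tables set these genes beside development; the libraries behind the adult reference are not stated. In the authors' deposited table of hepatoblasts (fetal liver progenitors) against adult hepatocytes, all 10 genes were lower at an adjusted p under 0.05, from -4.10 for Saa4 to -9.77 for Orm3 (log2 fold change), beside 37.9% of 13473 genes lower. In the authors' deposited table of newborn against adult hepatocytes, 7 were lower, beside 31.7% of 12176 genes lower and 31.6% higher: Orm2 (-9.75), Orm1 (-9.17), Orm3 (-7.51), Saa2 (-7.07), Saa1 (-5.97), Saa4 (-2.945) and Saa3 (-1.505). The scavengers differed from these, with Hpx at 0.83 (adjusted p = 6e-09) and Hp at -0.078 (adjusted p = 0.776), and Lcn2 at 1.17 (adjusted p = 0.0492), in the same authors' deposited table. The authors' deposited table of triple null and hepatoblast does not state its direction, which was read here as triple null against hepatoblast because Foxa3, deleted in triple null, is at -13.2 in it. In that authors' deposited table all 10 were higher, from 2.455 for Hp to 14.2 for Orm3, beside 37.6% of 13624 genes. The authors' deposited table of triple null against FoxA3 null gave 9 of the 10 an adjusted p under 0.05, Saa4 (0.52, adjusted p = 0.0507) excepted, beside 20.6% of 10017 genes higher and 22.1% lower. In the authors' deposited table for HNF4a, Orm3 was at 7.27, Lcn2 at 3.21 and Saa1 at -3.43. Orm1, not called in liver here, was at -0.40 in that authors' deposited table (adjusted p = 0.0366), and Saa3 at -0.98 (adjusted p = 0.0752).

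**Figure D4:**
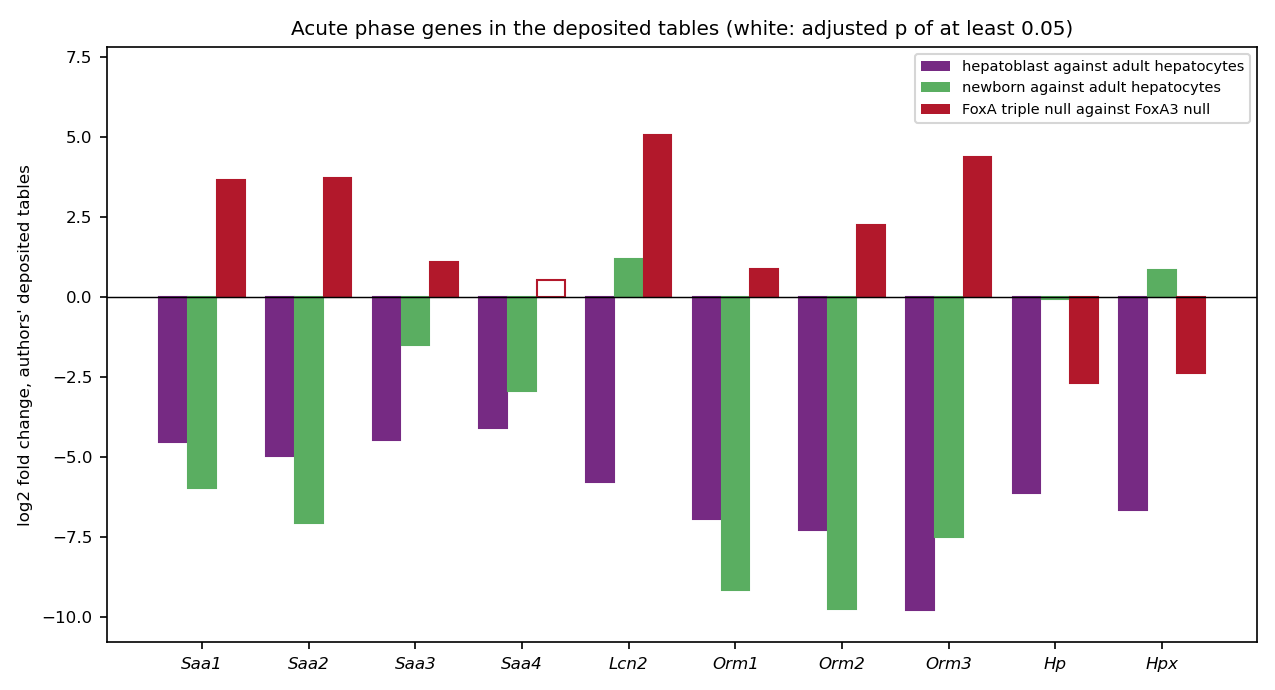
Log2 fold changes of the 10 genes as the authors deposited them, for hepatoblast against adult hepatocytes, newborn against adult hepatocytes and triple null against FoxA3 null; white bars have an adjusted p of at least 0.05. The orosomucoids reach -6.95 or lower in hepatoblasts and -7.51 or lower in newborns, while Hp and Hpx are at -0.078 and 0.83 in newborns.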

How the data were processed

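RNA of mouse hepatocytes and mouse liver was sequenced. Values are RPKM that the authors deposited in 1 matrix of 33773 gene symbols; SAMtools, Cufflinks 2.2.1, DESeq2 and mm9 are named in the submitters' processing notes without a role, and the aligner and annotation are not given in the sources used here. The log2 fold changes and the p-values of the authors' comparisons are copied from the deposited tables; for triple null against Cre alfp the deposited p-values were adjusted here. The matrix has 21 columns that match a sample or group by name, and 9 other columns match none and were not used. The liver columns carry a barcode, not a replicate number. Peaks were not used here, since they are in mm9 and the gene table is of another build.

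The tested genes reached an RPKM of 1 in 3 or more hepatocyte libraries or in 2 or more liver libraries (11500 and 12434). The test was limma 3.58.1 (R 4.3.3) on log2(RPKM + 1), in 1 fit of the 15 hepatocyte and 1 of the 6 liver libraries, without a replicate block, over 7 comparisons. A call needed a Benjamini-Hochberg adjusted p under 0.05 and a log2 difference of at least 1. The shift of the median over all tested genes was taken off where it exceeded 0.1, but calls were made before that. All 10 members passed the filter in both fits, Orm3 in liver only through the libraries labelled null. The log2(RPKM + 1) scale understates the change of low genes. RPKM keep no depth in reads, so no counting error could be given, and 2.9% of values above 0 lay under 1e-06. The script was tested on simulated data. Alternatives were another pseudocount, filters, scalings, a replicate block, no minimum difference, only the 2 groups, and each library left out. Members and gene lists were chosen with earlier results of these data known. Named genes are the members, the targeted genes, up to 4 called genes each way per list and the 2 nearest genes in pattern; fewer are printed where a list is summarised, and 1 is not reported here. Promoters were aligned globally in Biopython 1.88 (scores: match 1, mismatch -1, gap opening -2, gap extension -0.5). Tests were two-sided.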

Additional observations from a re-analysis of the deposited data

Results flagged for a closer look

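In 4 of 40 groups of 4 libraries, 1 library lay far from the other 3. The gap was judged on RPKM, not on the log2 scale of the tests. Independent, normally spread values give such a gap in about 1 in 20 groups, but members share libraries, so that rate need not hold here. The 4 were Saa2 in triple null library 3 (2325 RPKM), Saa4 in Cre alfp library 1 (24.8 RPKM), and Lcn2 (84.0 RPKM) and Orm1 (865 RPKM) in the GGCTAC library labelled HNF4a null. Without these libraries the differences were 2.81 for Saa2 (triple null against FoxA3 null), -1.25 for Saa4 (Cre alfp against lox), and 1.88 for Lcn2 and -0.46 for Orm1 (labelled HNF4a null against control), on the same side of the threshold. In triple null against lox, Saa2 lost its call without triple null library 3 (1.57, limma adjusted p = 0.0808).

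The effect of deleting FoxA1 and FoxA2 differed with FoxA3 status, by limma's interaction term, for 8 members: Saa1 (4.76), Lcn2 (4.47), Saa2 (4.26), Orm2 (2.28), Saa4 (2.15), Saa3 (2.03), Orm3 (1.68) and Orm1 (1.38), all on the log2 scale. The Orm2 call was lost with the replicate block (limma adjusted p = 0.0611), with no filter (0.115) and without any 1 of 12 of the 15 libraries, and the Saa2 call with no filter (0.0505). The way and age of deletion, the library set and the described AAV injection differ along with FoxA3 and cannot be told apart from it. The same holds for the unequal remaining Foxa1 and Foxa2 RNA of the 2 deleted groups.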

How the results depend on the processing

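Over 1109 alternative values of the members, 1057 kept their direction and side of the threshold, 42 lost a call, 7 gained one and 3 changed sign; the cause was not tested. The sign changes were Orm3 in FoxA3 null against lox (-0.06 without FoxA3 null library 2, up to 0.30 without another), Orm2 in Cre alfp against lox (-0.28 without Cre alfp library 1, up to 0.49 without another) and Orm1 in liver (0.12 under quantile normalization), all uncalled. With each library left out in turn, the number of members called ran from 7 to 9 for triple null against FoxA3 null, 3 to 4 for Cre alfp against lox, 7 to 8 for the interaction, 6 to 8 for triple null against lox and 6 to 8 for liver, stayed at 10 for triple null against Cre alfp and at 0 for FoxA3 null against lox. Where that left 1 liver control, the lone library was assumed to vary like the others. The liver counts include Orm3, which passed the filter on low values only through the libraries labelled null. The number of members called was within 1.5 times the reported one under every other alternative.

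Over all tested genes, dropping the minimum difference raised the calls from 933 to 3413, 274 to 628, 784 to 1658, 827 to 4001, 1556 to 4891, 1184 to 4743 and 1807 to 6569, in the order triple null against FoxA3 null, Cre alfp against lox, interaction, FoxA3 null against lox, then triple null against each of lox and Cre alfp, and liver. FoxA3 null against lox had 1303 calls with a pseudocount of 0.1, and Cre alfp against lox had 177 without lox library 1 and 182 in a fit of its 2 groups. Median scaling raised the share of lower calls from 49.5% to 63.7% for FoxA3 null against lox, 42.9% to 54.9% for triple null against lox, 48.9% to 60.4% for triple null against Cre alfp and 41% to 65.8% for liver.

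Same-numbered hepatocyte libraries showed little common deviation (correlations -0.36 to 0.17). Triple null libraries 1 and 3 correlated best with the lox library of their own number (0.06 and 0.17), and no other pair did so. With 3 or 4 libraries per group, this cannot exclude that the numbers pair them. With the replicate block, 8, 4, 7, 0, 7 and 10 members and 919, 229, 772, 834, 1513 and 1179 genes were called in the 6 hepatocyte comparisons, in the order above. No paired analysis was possible for liver because its columns carry no replicate numbers. RPKM give no read depth, so the precision of low values such as Orm3 in the liver controls is unknown.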
